A study of Mus musculus with 4 samples.

Results

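Runx1, its DNA-binding relative Runx2 and their shared partner Cbfb were followed through TA (tibialis anterior) muscles of WT and Fgf21KO mice, with the sciatic nerve intact or cut. Members were taken by symbol from a table of 13825 genes. Of the 4 symbols looked for (Runx1, Runx2, Runx3 and Cbfb), 3 were found, and Runx3 was not analysed here. The genes were chosen on their measured response to denervation, since Runx1 is among the genes with the highest ratio of denervated over sham muscle. Their denervation values are therefore a description without a test. The 3 genes all averaged 10 counts or more per library and so were among the 13084 genes that entered the fits.

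The mice were adult males. WT animals were C57BL/6J, and Fgf21KO animals (FGF21KO in the labels) lacked the growth factor gene Fgf21 in the whole body, so no muscle-specific promoter or Cre was involved. Sham muscle is called WS in WT and KS in Fgf21KO mice, and denervated muscle WD and KD, all collected on day 14. Per the labels, a 2 mm piece of the left sciatic nerve was taken out and the innervated right leg was the control, whereas the study's methods describe a longer excision and a sham operation on the other leg. RNA of 4 muscles was pooled for each group, so a group is 1 library, no difference has a replicate check, and mouse-to-mouse spread is not visible. Counts of Fgf21 were not analysed here, and no check of the genotype labels was made on it.

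RUNX proteins are transcription factors that bind DNA through the Runt domain. Runx1 is best known as a regulator of blood stem cells and blood lineages, Runx2 as the regulator of bone-forming cells and of growing cartilage, and Runx3 for roles in T cells and sensory neurons. Cbfb does not touch DNA: it binds the Runt domain, strengthens its grip on DNA and protects the RUNX protein from breakdown. In skeletal muscle Runx1 is known as a gene that is low in innervated fibres, rises when the nerve is lost and limits the wasting of denervated fibres.

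In GENCODE M21 on GRCm38, Runx1 lies on the minus strand of chromosome 16 (chr16:92601466-92826149), Runx2 on the minus strand of chromosome 17 (chr17:44495987-44814797), Runx3 on the plus strand of chromosome 4 (chr4:135120652-135177990) and Cbfb on the plus strand of chromosome 8 (chr8:105170674-105217989). The labels name GRCm39 as the study's build, so these positions are not those of the authors' alignment. Runx1 has 5 coding transcripts there, Runx2 has 9 and Cbfb has 4. Runx genes are transcribed from a distal and a proximal promoter, and RefSeq start windows (GRCm38.p6, 250 bases before to 50 after a start) were present for both promoters of Runx1.

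The first-start windows of Runx1, Runx2 and Runx3 share an exact run of 18 bases that holds 2 copies of ACCACA, the core letters of the RUNX binding motif. It is printed for each gene, 5′ to 3′ along the gene, with the shared run in capitals, since it is the sequence feature common to the family that the choice of genes did not use.
Runx1, distal promoter, chr16:92826025-92826054, minus strand: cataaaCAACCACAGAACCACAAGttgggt
Runx2, chr17:44814582-44814611, minus strand: acaaaCAACCACAGAACCACAAGtgcggtg
Runx3, distal promoter, chr4:135120504-135120533, plus strand: tccctCAACCACAGAACCACAAGgccaggc

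Counted from the RefSeq start as base 1, the run covers bases 27 to 44 of Runx1 and bases 22 to 39 of Runx2, and bases -136 to -119 before the start of Runx3. Of 32851 start windows of all genes, 4 held this run on either strand. They belong to Runx1, Runx2, Runx3 and Gm16225, a long noncoding RNA gene whose window overlaps that of Runx3 on the opposite strand.

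The stretches before the starts of Runx1 and Cbfb are printed because these genes, a strongly responding subunit and a nearly level one, differ in the data below. Only bases outside annotated exons of the gene are shown, and any ACCACA or ACCGCA, on either strand, would be in capitals.
Runx1, before the distal start, chr16:92826150-92826324, minus strand: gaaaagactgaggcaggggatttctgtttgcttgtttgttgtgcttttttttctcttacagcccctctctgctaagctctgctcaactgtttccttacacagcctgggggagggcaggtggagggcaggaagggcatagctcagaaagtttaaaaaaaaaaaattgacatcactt
Runx1, before the proximal start, chr16:92697330-92697579, minus strand: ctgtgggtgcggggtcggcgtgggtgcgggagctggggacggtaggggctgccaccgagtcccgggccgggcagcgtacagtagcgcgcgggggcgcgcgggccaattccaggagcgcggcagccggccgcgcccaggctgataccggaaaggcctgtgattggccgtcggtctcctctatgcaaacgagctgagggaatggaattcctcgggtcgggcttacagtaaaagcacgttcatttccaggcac
Cbfb, chr8:105170424-105170673, plus strand: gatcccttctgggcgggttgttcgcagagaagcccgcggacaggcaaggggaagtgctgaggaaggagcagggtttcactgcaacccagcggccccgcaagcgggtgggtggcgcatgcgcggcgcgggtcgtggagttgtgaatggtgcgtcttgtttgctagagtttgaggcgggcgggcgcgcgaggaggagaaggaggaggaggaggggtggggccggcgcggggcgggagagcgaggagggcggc

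None of these 3 stretches holds either form of the motif. G and C made up 45.1% of the Runx1 distal stretch, 67.6% of the proximal one and 69.2% of the Cbfb one. The table of counts gives 1 value per gene, so reads from the distal and the proximal promoter of Runx1 could not be separated.

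Total counts over the genes in the table ran from 25249879 to 34141303 per library, and a count of 3 corresponded to 0.0919 to 0.129 CPM (the reads of a gene relative to the library total, after TMM scaling between libraries). The smallest count was 1. The 3 muscle fibre markers measured, Myh1, Mylpf and Tnni2, summed to 41910 CPM in WS and 40570 in KS, and to 25470 in WD and 27720 in KD, with fitted log2 fold changes of -0.47 to -0.88 that did not reach 2-fold, and 12 of the 15 such markers were not analysed here.

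Runx1 was near the bottom of the expressed genes in sham muscle and near the top in denervated muscle. It had 44 counts in WS and 53 in KS, against 5422 in WD and 5459 in KD. Both denervated libraries were far above both sham libraries, and within each surgery the genotypes lay close together. On the CPM scale its level was 1.89 in WS (95% counting interval 1.38 to 2.54) and 1.78 in KS (1.34 to 2.33), against 166.1 in WD (161.7 to 170.5) and 176.5 in KD (171.8 to 181.2). Intervals of levels, shares and ratios given here are exact, and all intervals cover counting error only. In order of level, KD exceeded WD by more than the counting intervals, and WS and KS, whose intervals overlap, were not told apart.

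Among the 13084 genes, Runx1 ranked 11041 and 11086 from the top in WS and KS, and 770 and 698 in WD and KD. In WT muscle it was 84.7-fold higher after denervation (65.2 to 121-fold), a log2 ratio of 6.40 (6.03 to 6.92). In Fgf21KO muscle it was 95.3-fold higher (75.5 to 132-fold), a log2 ratio of 6.57 (6.24 to 7.05). The ratio of Runx1 was the third highest of all genes in WT and ranked 4 in Fgf21KO muscle. Genes at least 2-fold higher made up 7.18% of all genes tested in WT and 7.51% in Fgf21KO muscle, and genes at least 2-fold lower 7.61% and 6.1%. The upper ends of the fold intervals are set by the small sham counts. Ratios and folds include a prior count of 2, so they lie nearer to no difference than a ratio of the printed levels. Their intervals use the counts alone. Whole muscle was sequenced, so a change in the number of cells of a type and a change in RNA per cell cannot be told apart.

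**Figure D1:**
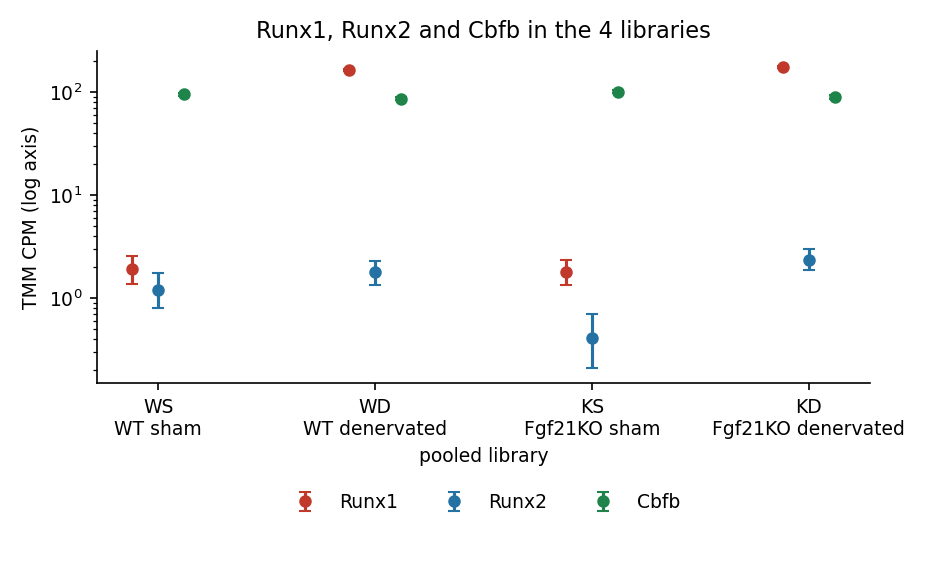
TMM-scaled CPM on a log axis of Runx1, Runx2 and Cbfb in the 4 pooled libraries (WS, WD, KS, KD), with exact 95% counting intervals as bars. Runx1 goes from below 2 CPM in both sham libraries to 166.1 and 176.5 CPM in the denervated ones, while Cbfb stays between 86.7 and 101.2 CPM; CPM is not corrected for gene length, so heights of different genes are not compared here.

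Runx2 was a low gene in every library. It had 28 counts in WS and 12 in KS, against 58 in WD and 73 in KD. Both denervated libraries were above both sham libraries, but the step differed between genotypes. Its level was 1.20 CPM in WS (0.801 to 1.74) and 0.404 in KS (0.209 to 0.706), against 1.78 in WD (1.35 to 2.30) and 2.36 in KD (1.85 to 2.97). In order of level, KD, WD and WS each overlap the next in counting interval, and KS lies below the other 3. The log2 ratio of denervated over sham was 0.53 in WT, with an interval of -0.11 to 1.27 that includes no difference, and 2.36 in Fgf21KO muscle (1.66 to 3.56), where Runx2 ranked 161 from the highest. Supt3, a transcription cofactor subunit gene, overlaps Runx2, with 168 and 235 counts in WS and KS and 458 and 411 in WD and KD, and the strand setting of the counting is not given in the sources used here, so the reads of these 2 genes may be mixed.

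Cbfb was high and nearly level. It had 2221 counts in WS and 3006 in KS, against 2832 in WD and 2794 in KD. After scaling, its level was 95.6 CPM in WS (91.7 to 99.7) and 101.2 in KS (97.6 to 104.9), against 86.7 in WD (83.6 to 90.0) and 90.3 in KD (87.0 to 93.7). In order of level, KS, WS, KD and WD each overlap the next in counting interval, and both denervated levels lie below both sham levels. The log2 ratio of denervated over sham was -0.14 in WT (-0.22 to -0.06) and -0.16 in Fgf21KO muscle (-0.24 to -0.09), and neither reached 2-fold. With total counts in place of TMM, these ratios turn to 0.14 and 0.19, while the median of all genes moves from 0.01 to 0.29 and from 0.01 to 0.36, so Cbfb stays below the median gene. Cbfb shares its locus with the overlapping gene AI225912, which had 15 to 43 counts per library.

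The makeup of the RUNX pool and its ratio to Cbfb followed from these levels. Runx1 gave 61.1% of the summed Runx1 and Runx2 reads in WS (48.9 to 72.4%) and 81.5% in KS (70.0 to 90.1%). It gave 98.9% in WD (98.6 to 99.2%) and 98.7% in KD (98.3 to 99.0%). Summed RUNX reads, without Runx3, were 72 in WS and 65 in KS, and 5480 in WD and 5532 in KD. The sham shares rest on few reads, and their intervals overlap. In both denervated libraries nearly all RUNX reads were of Runx1.

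Levels of different genes were compared per kilobase of exon, over the union of a gene's annotated exons (12025 bases for Runx1, 8837 for Runx2 and 3480 for Cbfb). On this scale Runx1 was 0.158 in WS and 0.148 in KS, against 27.5 and 29.1 for Cbfb, all in CPM per kilobase. In the denervated libraries Runx1 was 13.8 in WD and 14.7 in KD, against 24.9 and 25.9 for Cbfb. The ratio of Cbfb to Runx1 on this scale came to 174 in WS and 196 in KS, and to 1.80 in WD and 1.77 in KD. Against summed Runx1 and Runx2, Cbfb stood at 93.5 in WS and 149.8 in KS, but at 1.78 in WD and 1.74 in KD. With the length of the longest coding transcript instead (5861 bases for Runx1, 2891 for Cbfb), the ratio of Cbfb to Runx1 was 102 in WS and 115 in KS, and 1.06 in WD and 1.04 in KD. With either length, Runx1 RNA approached the level of its partner's RNA. This follows from the rise for which Runx1 was chosen and a nearly level Cbfb. These are ratios of RNA in whole muscle, and neither the proteins nor the transcripts used were measured here.

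The genotype contrast was not used to choose the genes, and it was tested over all 4 libraries by a quasi-likelihood test (edgeR) whose model adds the effects of surgery and genotype. This model treats the 2 libraries of a genotype as replicates and leaves 1 residual degree of freedom. Per the labels the control was the other leg of the operated mice, so these 2 libraries share animals, each genotype is 1 pool of animals, and the p-values do not measure the spread between mice. The log2 fold change of Fgf21KO over WT was 0.07 for Runx1 (Benjamini-Hochberg adjusted p = 0.935), -0.28 for Runx2 (adjusted p = 0.934) and 0.07 for Cbfb (adjusted p = 0.903). None of the 3 passed, against 0.176% of all genes (23 genes, and 1037 at an unadjusted p-value below 0.05).

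Between single libraries, Runx1 in KD over WD had a log2 ratio of 0.09 (0.03 to 0.14) and in KS over WS of -0.08 (-0.69 to 0.52). Cbfb had 0.06 (-0.02 to 0.13) and 0.08 (0.00 to 0.16). Runx2 had 0.40 (-0.11 to 0.93) in KD over WD, and in KS over WS it had -1.43 (-2.69 to -0.55), the one genotype ratio of the 3 genes that was past 2-fold. In the second deposited table, whose values add 1 to scaled counts, this ratio was -0.65 and no longer past 2-fold. Genes at least 2-fold apart made up 2.04% of all genes in sham and 1.55% in denervated muscle.

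The denervation ratio of Fgf21KO minus that of WT muscle was 0.17 on the log2 scale for Runx1 (-0.41 to 0.75), and 49.2% of all genes had a smaller absolute difference. The intervals of these differences are normal approximations. For Cbfb it was -0.02 (-0.13 to 0.09), and 7.7% of genes had a smaller one. For Runx2 it was 1.83 (0.73 to 2.92), and 99.4% of genes had a smaller one. That share is over genes of every count, and genes with counts as low as those of Runx2 were not ranked apart. When an average of 50 counts was required, which Runx2 does not reach, 68 genes in place of 267 were 2-fold apart in KS vs WS. The intervals of Runx1 and Cbfb include no difference between genotypes. That of Runx2 does not, and it rests on 12 counts in KS. With 1 library per group, the interaction has no replicate error and was not tested.

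**Figure D2:**
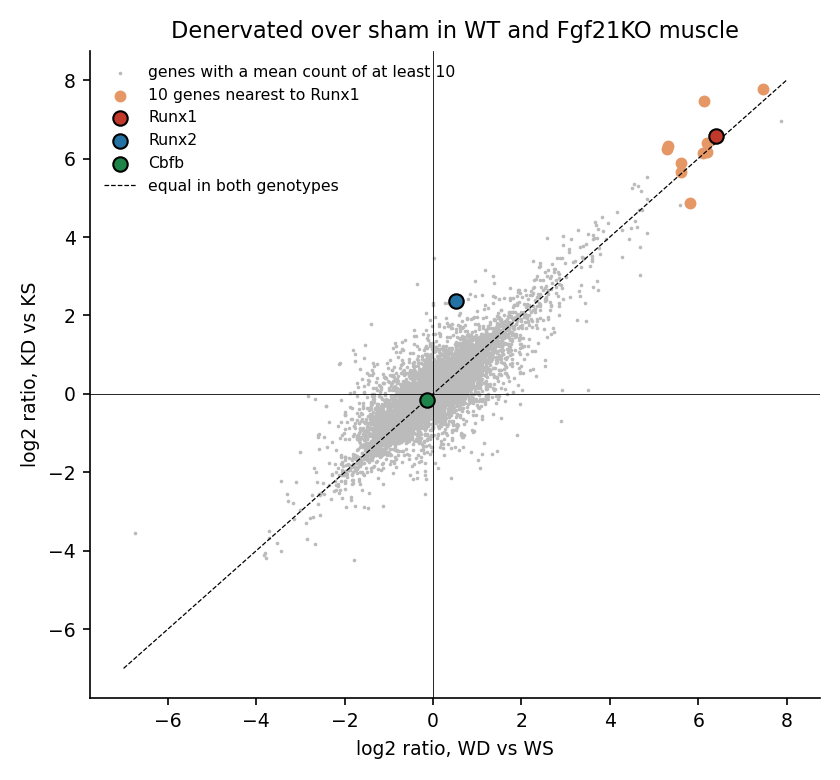
Log2 ratio of denervated over sham in WT muscle (horizontal) against Fgf21KO muscle (vertical) for the 13084 genes tested, with the 10 genes nearest to Runx1 in profile in orange. Runx1 lies at 6.40 and 6.57 near the line of equality, Cbfb close to the origin at -0.14 and -0.16, and Runx2 above the line at 0.53 and 2.36.

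The genes whose pattern over the 4 libraries was most like that of Runx1 were found by the Euclidean distance between log2 CPM values centred on each gene's mean, a description over 4 points that share their libraries. The nearest was Emb, embigin, a membrane glycoprotein that accompanies monocarboxylate transporters, at a distance of 0.24, with 22 counts in WS and 29 in KS, against 2413 in WD and 2735 in KD. Ankrd1, an ankyrin-repeat protein of the sarcomere and nucleus, followed at 0.34, with 323 and 389 counts in sham and 33261 and 29336 in denervated muscle (WT first). Aif1l, an actin-binding protein, was at 0.37, with 71 and 86 counts in sham and 7053 and 6505 in denervated muscle. In these 3 genes the genotypes lay close together within each surgery and the surgeries far apart, which follows from choosing them by nearness to Runx1.

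Their log2 ratios of denervated over sham were 6.19 in WT and 6.40 in Fgf21KO muscle for Emb, 6.19 and 6.17 for Ankrd1, and 6.11 and 6.15 for Aif1l. Next came Mycl, a MYC family transcription factor (distance 0.80, ratios 5.32 and 6.32), and Kcnk5, a background potassium channel (0.85, 5.61 and 5.88). The noncoding RNA genes Gm46162 (5.29 and 6.25) and Srrm4os (5.61 and 5.67), both at a distance of 1.0, had the same shape at similar sham counts of 15 to 26. Ces2c, a carboxylesterase, was at 1.01, with 9 counts in WS and 3 in KS, against 1039 in WD and 933 in KD. Rrad, a small GTP-binding protein that inhibits L-type calcium channels, was at 1.14 with ratios of 7.47 and 7.77, above those of Runx1. Adra1b, an alpha-1 adrenergic receptor, closed the list at 1.28, with 2 and 5 counts in sham and 283 and 213 in denervated muscle. No fold is given where a sham library held 3 counts or fewer. Under other scalings and a larger prior count, 9 or 10 of these 10 genes were again among the nearest 10.

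**Figure D3:**
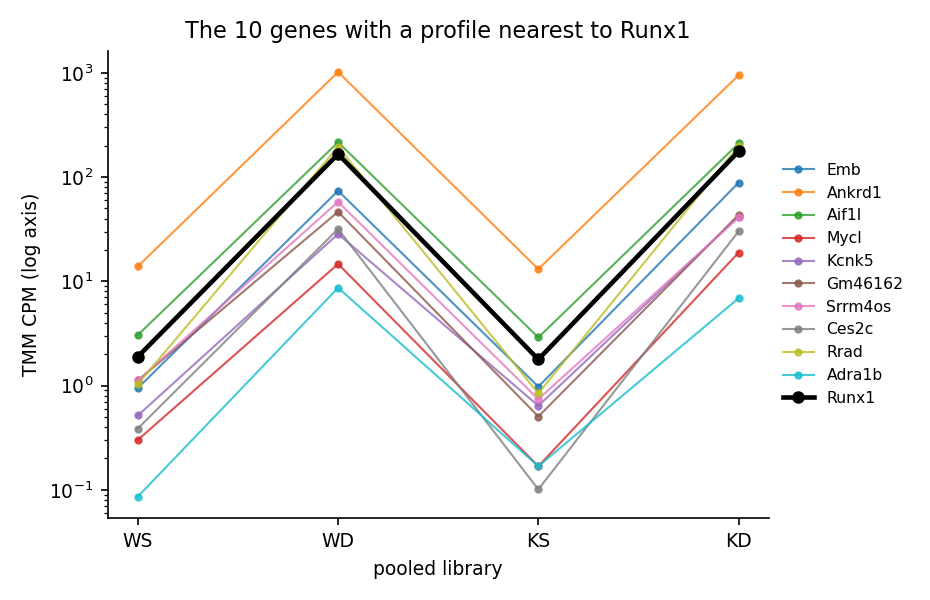
TMM-scaled CPM on a log axis in the 4 pooled libraries for Runx1 (black) and the 10 genes with the nearest profile. Lines join the libraries of a gene only to guide the eye. All 11 genes are low in WS and KS and high in WD and KD, which follows from how they were chosen. Ankrd1 is the highest and Adra1b the lowest in the denervated libraries.

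Genes nearest to Cbfb in profile were those that, like it, stayed nearly level. Cops4, a subunit of the COP9 signalosome, was at a distance of 0.01, with 2212 counts in WS and 2969 in KS, against 2836 in WD and 2775 in KD. Its log2 ratios of -0.13 in WT and -0.16 in Fgf21KO muscle sit beside those of Cbfb. Dnajc25, Eif2ak1, Slc38a3 and Ubox5, in turn a DNAJ co-chaperone, the heme-regulated eIF2α kinase, a glutamine transporter and a U-box ubiquitin ligase, were each at 0.02.

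Genes next to Runx1 and Cbfb were read from the gene order in RefSeq, 5 on each side that were in the count table. Calls here are those of the denervation term of the quasi-likelihood fit, an adjusted p-value below 0.05 and at least 2-fold, which 6.84% of all genes passed as higher and 6.24% as lower. Of the 10 neighbours of Runx1, 0 were called in either direction. They were Atp5o, Slc5a3, Mrps6, Smim11 and Rcan1 on one side and Setd4, Cbr1, Cbr3, Dop1b and Morc3 on the other. The closest, Rcan1, an inhibitor of calcineurin, had log2 ratios of 0.65 in WT and 0.54 in Fgf21KO muscle, and Cbr1, a carbonyl reductase, had 0.81 and 0.61. These measured genes lay from 135 (Rcan1) to 1006 kilobases (Morc3) away from Runx1. None had a ratio as large as that of Runx1, and 0 calls among 10 genes is near the shares of all genes.

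Of the 10 neighbours of Cbfb, 4 were called higher and 0 lower, against 6.84% of all genes. These were Rrad and Ces2c, both also among the 10 profiles nearest to Runx1, and Ces2g and Fbxl8. In that order they lay 539, 316, 201 and 46.7 kilobases from Cbfb. Ces2g, a second carboxylesterase, had 14 counts in WS and 16 in KS, against 51 in WD and 65 in KD, and log2 ratios of 1.28 and 1.84. Fbxl8, an F-box protein, had 11 and 13 counts in sham and 54 in each denervated library, and ratios of 1.67 and 1.84. Ces2c and Ces2g are paralogs in 1 cluster, so reads may be split between them by the counting, and their values are uncertain. The 6 others, Pdp2, Ciao2b, D230025D16Rik, B3gnt9, Tradd and Hsf4, had ratios between -0.86 and 0.97. Cbfb, between them, was level.

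Of the 10 neighbours of Runx2, 1 was called higher and 1 lower, against 6.84% and 6.24% of all genes. Hsp90ab1, a constitutive HSP90 chaperone, had log2 ratios of 1.03 and 1.05, and Clic5, a chloride intracellular channel protein, had -1.36 and -1.49.

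**Figure D4:**
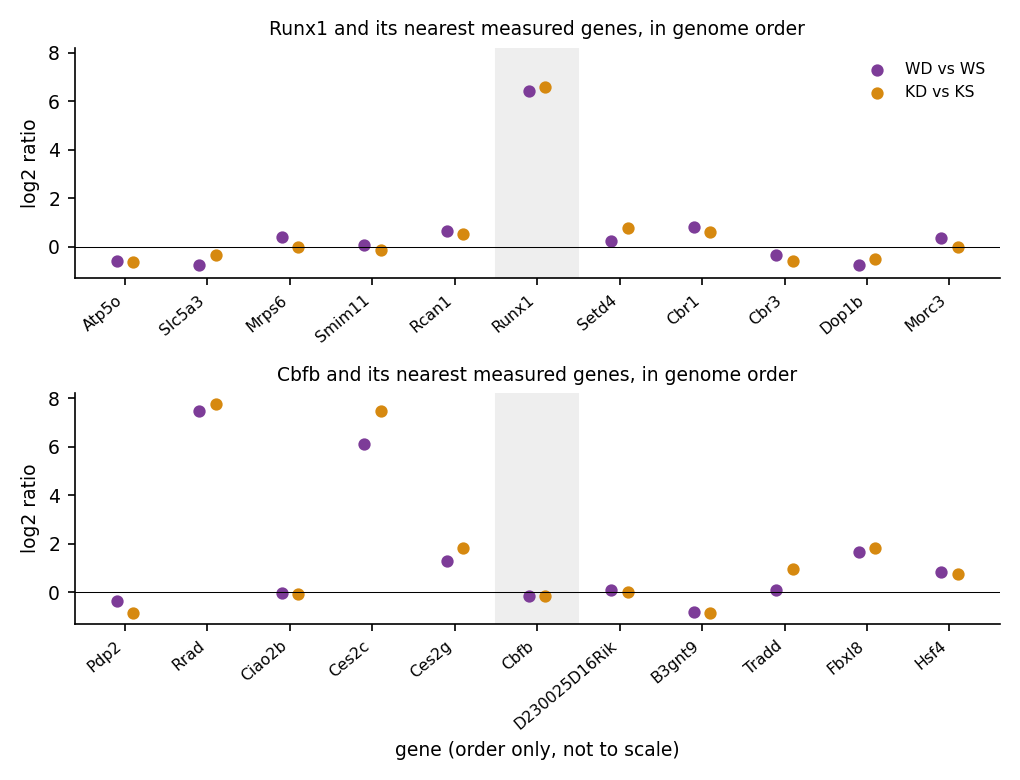
Log2 ratio of denervated over sham in WT (purple) and Fgf21KO muscle (orange) for Runx1 and for Cbfb (grey bands) and the 5 nearest measured genes on each side, in genome order and not to scale. Runx1 stands alone at 6.40 and 6.57 among neighbours within 1 log2 unit, whereas Cbfb at -0.14 and -0.16 lies between Rrad, Ces2c, Ces2g and Fbxl8, which are higher; the Fgf21KO point of Ces2c rests on 3 counts in KS.

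RUNX motif matches were counted in the start windows of all genes as ACCACA or ACCGCA, on both strands, with overlapping matches counted. The distal window of Runx1 held 2 matches, both in the shared run printed above, the window of Runx2 held 4, the distal window of Runx3 held 2, and the proximal windows and that of Cbfb held 0. Of all windows, 22.4% held at least 1 match and 2.86% at least 2. An AP-1 motif (TGANTCA), an E-box (CAGCTG) and a CRE (TGACGTCA) were each found 0 times in the windows of the family and Cbfb, against 7.81%, 16.3% and 1.79% of all windows. A match describes letters in a window and is no evidence of binding.

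Among windows of genes in the fit (9744 of 13084 genes had one by symbol), 20.7% held a RUNX match. The share was 21.3% for windows of genes called higher after denervation and 17.4% for windows of genes called lower. AP-1 matches stood in 4.99% of windows of tested genes, 8.41% of the windows of genes called higher and 5.87% of those of genes called lower. In the same order, E-boxes stood in 15.2%, 18.8% and 19.1% of windows, and CREs in 3.04%, 1.87% and 2.61%. Of the 10 genes nearest to Runx1, 8 had a window, and those of Ankrd1 and Kcnk5 held 1 RUNX match each. These shares were not tested.

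The lists of genes of proteins that work with RUNX factors were short, and their few calls are not set apart from the shares of all genes. Of 17 corepressor genes tested, 0 were called higher and 1 lower after denervation, against 6.84% and 6.24% of all genes, with a median log2 fold change of 0.01, the same as that of all genes. The one was Tle5, the short Groucho-family member that lacks the repressing domain of the others, at -1.26 (Benjamini-Hochberg adjusted p = 7.86e-15 in the edgeR fit). Tle5 had 17101 counts in WS and 21656 in KS, against 10228 in WD and 9302 in KD. The full-length Groucho genes, named for their role and after their values were seen, were at 0.13 (Tle1), -0.74 (Tle2), -0.09 (Tle3) and 0.09 (Tle4). The summed level of the corepressor list was 1420 CPM in WS and 1336 in KS, and 923 in WD and 913 in KD. Tle5, its most abundant gene, alone gave 736 CPM in WS and 729 in KS, and 313 in WD and 301 in KD. Most of the fall in the sum is thus that of Tle5 and not of the list at large. Runx1t1, the ETO corepressor gene, was not analysed here.

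Of 16 coactivator genes and of 15 genes of ubiquitin ligases and turnover, 0 were called in either direction. Among all genes 6.84% were called higher and 6.24% lower, so few calls would be looked for in lists of this length. Medians were -0.13 and -0.03, and the fitted log2 fold changes ran from -0.74 to 0.81 and from -0.94 to 0.90. Also chosen for their role after their values were seen, the acetyltransferase genes Ep300 and Crebbp, whose products acetylate RUNX1, were at -0.74 and -0.44. Stub1, a ubiquitin ligase that marks RUNX1 for breakdown, was at -0.26. These lie under the 2-fold threshold. By the adjusted p-value alone, with no fold threshold, 9 of the corepressor, 10 of the coactivator and 10 of the turnover genes passed, as did 7003 of the 13084 genes.

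Of 29 genes for transcription factors that bind beside RUNX proteins, 7 were called higher (24.1%) and 1 lower (3.45%). The shares of all genes were 6.84% and 6.24%, and the median of the list was 0.09. Junb and Atf3, stress-responsive members of the AP-1 and ATF families, were at 2.60 and 2.52, and Tead4, a partner of the Hippo pathway coactivators, at 1.65. Junb had 147 counts in WS and 159 in KS, against 1236 in WD and 1013 in KD, so its denervated libraries were well above the sham ones. Spi1, the myeloid factor PU.1, was at 1.32 with 11 and 15 counts in sham and 30 and 48 in denervated muscle, and Fosl2, another AP-1 subunit, at 1.07. Lyl1, a blood and endothelial factor, was lower at -1.33, with 48 and 78 counts in sham and 27 and 32 in denervated muscle. The myogenic factors Myod1, Myf5, Myog and Myf6 were not analysed here.

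Known RUNX1 targets of blood cells were called in 1 direction. Of 12 tested, 6 were higher (50%) and 0 lower, against 6.84% and 6.24% of all genes, with a median of 0.93. Cdkn1a, the cell cycle inhibitor p21, was at 5.17, with 175 counts in WS and 338 in KS, against 11926 in WD and 9971 in KD. Cdkn1a is also counted among the genes of the muscle response to denervation given below. Zap70, a T cell receptor kinase, had 2 and 6 counts in sham and 142 in each denervated library. Itgb2 (1.87) and Itgal (1.10) encode leukocyte integrin chains, Tcf7 (1.84) a T cell transcription factor, and Spi1 was given above. Apart from Cdkn1a and Zap70, no gene of the 6 exceeded 66 counts in a library, and 2 genes were called when an average of 50 counts was required. Leukocyte markers moved in the same direction, as described below, and their part in these values was not tested. Of the 30 genes listed, 18 were not analysed here, among them Mpo, Elane and Rag1.

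Of 7 RUNX2 targets of bone and cartilage tested, 2 were called higher and 2 lower, against 6.84% and 6.24% of all genes. Their median was -0.80. Spp1, osteopontin, was at 4.26, with 82 counts in WS and 70 in KS, against 2283 in WD and 1355 in KD. Its genotype term, -0.66, had an adjusted p of 9.09e-04 but did not reach 2-fold. Alpl, tissue alkaline phosphatase, and Vegfa, the endothelial growth factor, were lower at -1.23 and -1.04. With total counts in place of TMM, 2 of the 7 were called. Bglap, Sp7 and Ibsp, markers proper to bone, were not analysed here.

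Of 30 genes listed for the muscle response to denervation, 10 were tested. Of these 10, 8 were called higher and 0 lower, against 6.84% and 6.24% of all genes. Their median was 3.16, beside a fitted log2 fold change of 6.55 for Runx1. The 2 not called were Lrp4, at 0.66, and Hdac9, which went the other way at -0.85. The 3 highest were Rrad (7.72), Ankrd1 (6.19) and Cdkn1a (5.17). The 3 lowest among those called were Hdac4, a class IIa histone deacetylase, at 2.78, Chrnb1, an acetylcholine receptor subunit, at 2.57, and Fbxo32, the atrophy ubiquitin ligase atrogin-1, at 1.21. Such genes were picked with earlier results known and are no independent evidence of their direction. In all, 3 genes had a higher fitted denervation change than Runx1, with Rrad the highest.

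**Figure D5:**
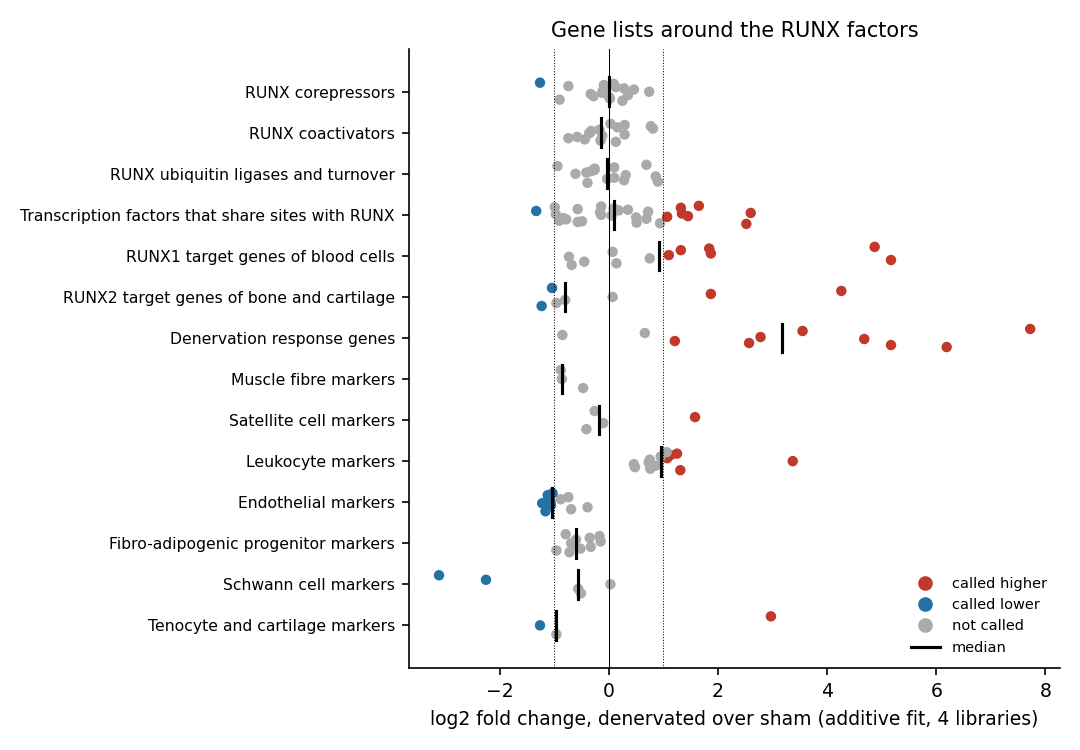
Fitted log2 fold change of denervated over sham (additive model, 4 libraries) for each gene of 14 lists, with called genes in colour, a black bar at each list's median and dotted lines at 2-fold. The corepressor, coactivator and turnover lists are centred near 0 with 1 called gene among them, while the denervation response list has a median of 3.16.

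Cells other than fibres also express RUNX genes, so their markers are given beside the members. Leukocyte markers summed to 36.5 CPM in WS and 39.0 in KS, and to 79.8 in WD and 79.2 in KD. Of 13 tested, 5 were called higher (Cd68 at 3.37, Adgre1, Ptprc, Mrc1 and Itgam) and 0 lower, with a median of 0.95. The shares of all genes were 6.84% higher and 6.24% lower. The log2 ratio of Itgam was 0.01 in WT and 2.31 in Fgf21KO muscle, with 36 counts in WS but 11 in KS. Ptprc (0.68 and 1.71), Adgre1 and Lyz2 also had the higher ratio in Fgf21KO muscle. The rest of the 13 had it in WT muscle, among them Cd163 (1.41 and 0.12) and Csf1r (1.05 and 0.45). The summed markers were not lower in KS than in WS. With total counts in place of TMM, 11 markers were called, and 1704 of all genes were called higher in place of 895. When an average of 50 counts was required, 3 of 9 markers tested were called, and 2 were called by DESeq2's Wald test. Besides the 13 tested in the main fit, the list held 9 markers, T and B cell markers among them, that were not analysed here. None of the 13 was at 0. The sum gives most weight to the most abundant markers, Lyz2, Mrc1 and Cd68, so its step is not set against that of Runx1. The part of leukocyte RNA in the level of Runx1 was not tested.

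Markers of other cell types were mostly lower or level after denervation. Their calls stand beside shares of all genes of 6.84% higher and 6.24% lower. Endothelial markers summed to 700.0 CPM in WS and 573 in KS, against 312 in WD and 306 in KD, and 6 of 10 were called lower (Flt1, Cdh5, Tie1, Kdr, Esam and Vwf), with 0 called under total counts. Of 11 fibro-adipogenic progenitor markers, 0 were called, and they summed to 976 and 995 CPM in sham and 652 and 642 in denervated muscle. Of 5 Schwann cell markers, the myelin genes Prx (-3.11) and Pmp22 (-2.25) were called lower, and the list summed to 64.7 and 63.7 CPM in sham and 24.99 and 25.12 in denervated muscle. Of 4 satellite cell markers, Sdc4 was called higher at 1.58, and the list summed to 125.3 to 168.4 CPM without Pax7, which was not analysed here. Of 3 tenocyte and cartilage markers, Sox9 (2.97) was called higher and Mkx (-1.26), on 7 to 24 counts, lower. With total counts, an average of 50 counts required or DESeq2's Wald test, 1 of these calls was left. Satellite cells, tendon and cartilage cells also use Runx1 or Runx2, and the part of these cells in the values was not tested.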

How the data were processed

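TA muscle RNA was sequenced as 1 pooled library per group with a stranded, poly(A)-selecting kit. The submitters' processing notes name GRCm39 and FastQC, and the aligner, the counter and the strand setting are not given in the sources used here. The authors deposited read counts per gene without normalization, which were used throughout, and a second table of log2 values. The deposited log2 values were found to be counts multiplied by a library-wide factor, raised by 1 and logged, and served only as an alternative.

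Counts were scaled by TMM in edgeR 4.0.16 (R 4.3.3). Log2 ratios between libraries used a prior count of 2, which their intervals did not, and genes averaging 10 counts or more. Single-gene intervals are 95% exact intervals for counts (Poisson), shares (binomial) and ratios (Clopper-Pearson on the share of 2 counts), and normal approximations for differences between ratios. edgeR's quasi-likelihood test with surgery and genotype as additive terms was applied to all 4 libraries, after the study's thresholds (Benjamini-Hochberg adjusted p-value below 0.05, at least 2-fold), with a common biological coefficient of variation of 0.0681. On simulated counts for 13084 genes, with 200 changed 4-fold, the denervation term recovered 99.2% and made a median of 0 false calls over 5 draws. In the data, 1711 genes were called by this term. Its recovery and false calls with that many changed genes, or with the spread between mice, were not tested. DESeq2 1.42.0, Python 3.11.15 and scipy 1.17.1 were also used.

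The genes named are the members, the 10 nearest profiles of Runx1 and 5 of Cbfb, 5 measured neighbours on each side, the 3 highest and 3 lowest called genes of each list, and the most abundant markers. One gene that the rule covers is not reported here. Other names were chosen after their values were seen, as were the neighbours of Runx2. The members and lists were chosen with earlier results of these data known. The alternatives tried were scaling by DESeq2's size factors or by total counts, other filters and prior counts, the second table, DESeq2's Wald test and no fold threshold. The longest transcript as gene length was added after seeing the data.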

Additional observations from a re-analysis of the deposited data

Results flagged for a closer look

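The Fgf21KO over WT ratio of Runx1 had opposite signs in the 2 surgeries, with a log2 ratio of -0.08 in sham muscle (KS vs WS) and 0.09 in denervated muscle (KD vs WD). The sham interval, -0.69 to 0.52, includes the denervated value. Each ratio compares 1 library with 1 library, and the difference was not tested.

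The same ratio of Runx2 was -1.43 in sham muscle and 0.40 in denervated muscle. The counting intervals, -2.69 to -0.55 and -0.11 to 0.93, do not overlap, on 12 to 73 counts per library. The difference was not tested, and without replicates it cannot be set against the spread between mice.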

How the results depend on the processing

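No paired analysis was possible beyond the genotype term of the fit, which sets each denervated library against the sham library of its own genotype, because single mice were not sequenced. Leaving out a library would leave the fit no residual degrees of freedom. Of 60 alternatives for the log2 ratios of Runx1, Runx2 and Cbfb, 55 stayed inside the counting interval, among them -0.65 for Runx2 in KS vs WS from the second deposited table, which is no longer past 2-fold. The exceptions were the second deposited table, with 5.83 (WD vs WS) and 5.97 (KD vs KS) for Runx1 and 1.24 (KD vs KS) for Runx2, and total counts only, with 0.14 and 0.19 for Cbfb. The second table adds 1 after scaling, which shrinks ratios of low genes.

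With total counts only, 1704 genes were called higher and 324 lower after denervation (84% higher, against 52.3%), 5 higher by genotype, and the share higher among 2-fold genes was 77.1% against 48.6% in WD vs WS, 85.1% against 55.2% in KD vs KS and 33% against 43.4% in KS vs WS. With no fold threshold, 7003 genes were called by denervation (3476 higher, 3527 lower) and 88 by genotype (41 and 47). Genotype calls, 23 as reported, were 15 (7 lower) when an average of 50 counts was required and 13 (5 higher, 8 lower) by DESeq2's Wald test. Genes at least 2-fold apart were 1188, 1117, 29 and 25 in the second table (WD vs WS, KD vs KS, KS vs WS, KD vs WD; 1936, 1780, 267 and 203 as reported), and 68 and 46 for the genotype pairs when an average of 50 counts was required.

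Of 84 list alternatives, 65 stayed within 1.5 times the count reported, 11 were higher and 8 lower. Without a fold threshold, calls numbered 9 for corepressors, 10 for coactivators, 10 for turnover genes and 22 for site-sharing factors. With total counts, they were 2 for coactivators, 3 for turnover genes and 2 for bone targets, and under the requirement of 50 counts, 2 for blood targets. The tenocyte and cartilage list had 1 call in place of 2 with total counts, with 50 counts required and by the Wald test. For the other changes the cause was not tested. Counting precision limits Runx2 and sham Runx1 most, and the spread between animals is unknown for every value.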
